A study of Camelus bactrianus with 10 samples.

Results

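The miR-30 family was examined in small RNA sequencing of exosomes, vesicles shed by cells and here taken from blood plasma, of Bactrian camels. Its members were found by name: every entry of the deposited table named for miR-30a, miR-30b, miR-30c, miR-30d or miR-30e, from either arm of the hairpin, with any end change or substitution note. This gave 14 of the 2581 entries in the table, 6 from the 5p arm and 8 from the 3p arm, which fell under 11 of 2338 mature names. The study compared 5 camels labelled thin, which weighed 412 ± 7.74 kg, with 5 labelled normal, which weighed 479 ± 17.1 kg (SD, n = 5 each), as the grouping implies. Both groups came from 1 place in Inner Mongolia and were sampled on 1 day, received no treatment that the labels name, and gave 1 library per camel. The labels used here give no age, sex, strain or genotype. The protocol text speaks of 9 libraries and the table holds 10, a difference that was not settled here.

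A miRNA hairpin is cut into a 5p and a 3p strand, of which 1 is usually kept by the silencing machinery while the other is broken down. The kept strand finds its target messenger RNAs mainly through its seed, so miRNAs that share a seed share many targets. In human and mouse cells miR-30 restrains the transition of epithelial cells to a mesenchymal state through SNAI1, favours the formation of fat cells, and, for miR-30a, restrains autophagy through BECN1. In humans miR-30e and 1 copy of miR-30c lie within the gene NFYC, miR-30a lies near another copy of miR-30c, and miR-30b lies near miR-30d. Exosomes carry miRNAs out of cells, and a level in plasma exosomes does not say which tissue released them.

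The sequences below, from the deposited table and written 5′ to 3′, show what the family shares and where its members part. Capitals mark the seed, bases 2 to 8. They are the most abundant entries of the 5p arms of miR-30a, miR-30c and miR-30e, followed by those of the 3p arms of the same miRNAs.
miR-30a-5p (mdo-miR-30a-5p_R+1): tGTAAACAtcctcgactggaagt
miR-30c-5p (hsa-miR-30c-5p_R+1): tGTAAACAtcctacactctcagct
miR-30e-5p (hsa-miR-30e-5p_R+2): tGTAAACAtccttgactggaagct
miR-30a-3p (mdo-miR-30a-3p_L+1): cTTTCAGTcggatgtttgcagc
miR-30e-3p (hsa-miR-30e-3p_1ss22CT): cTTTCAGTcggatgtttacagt
miR-30c-1-3p (hsa-miR-30c-1-3p_1ss22CT): cTGGGAGAgggttgtttactct
miR-30c-2-3p (hsa-miR-30c-2-3p): cTGGGAGAaggctgtttactct

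All 5 of the 5p arms carried the seed GTAAACA. The exception among the 5p entries was cgr-miR-30a-5p_L+2R-3, which begins 2 bases earlier and was listed in 2 libraries at about 1 normalized count. The 3p arms fell into seed groups of their own: TTTCAGT for miR-30a, miR-30d and miR-30e, TGGGAGA for both copies of miR-30c, and TGGGAGG for miR-30b. Over the first 22 bases, miR-30a-5p differed from miR-30e-5p by the single substitution C13T, counted from 1 at the 5′ end with the base of miR-30a first. It also differed from miR-30d-5p by 1 base, while miR-30b-5p and miR-30c-5p were 4 bases apart. Reads of miR-30a, miR-30d and miR-30e can therefore be told apart by 1 or 2 bases alone, and their separate levels are uncertain to that extent. The entries miR-30e-3p and miR-30c-1-3p carried the substitution C22T against the named human sequence, at the last base of the read.

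Values are the authors' normalized counts. The libraries summed to between 532999 and 757352 of them. Low values were whole multiples of 1 step in each library, and the totals divided by that step ran from 505263 in thin 2 to 4474902 in normal 5. A step need not be 1 read: of the low whole values of entries with a miRNA name, 80.7% to 86.4% per library were even multiples. The step was set by taking 1 of the smallest values of a library as 5 steps. Nearly all listed values were thus 5 steps or more (0.825 normalized counts in normal 4 and 5.27 in thin 2). The entries of miR-30b-3p, miR-30c-1-3p, miR-30c-2-3p and miR-30d-3p were never listed below 10 steps, so their limit may be higher. A listed 0 therefore need not mean absence. Normal 4 and normal 5 stood apart: entries named for a miRNA cluster known only from primates made up 0.480% and 0.438% of them and at most 0.0103% of any other library. Normal 4, normal 5 and thin 4 were also the 3 deepest libraries, so several results are also given without them. Of the marker lists, red blood cell miRNAs took 14.7% to 28.5% of normal and 7.73% to 14.9% of thin libraries, with all 4 list members present and miR-451a the most abundant, at a mean of 66920 normalized counts. In that list 1 of 5 tested names was called, miR-486, lower in thin camels (log2 fold change -1.41, limma adjusted p = 0.00841), and the median was -1.10. Over all 428 tested mature arms and predicted small RNAs, 1.64% were called, with 0.701% lower in thin camels. Platelet and myeloid miRNAs took 4.52% to 9.77%, leukocyte miRNAs 1.81% to 6.10% and muscle miRNAs 0.0536% to 0.139% of the libraries. The part of any of these cells in the miR-30 levels was not tested.

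The 5p arms of miR-30 were abundant in every library. Their summed share of the library averaged 4.27 ± 0.900% in normal camels and 4.12 ± 0.444% in thin camels (SD, 5 libraries a group). By library the share was 3.16%, 3.60%, 4.28%, 5.11% and 5.20% in normal 1 to 5. It was 4.62%, 3.65%, 4.11%, 4.504% and 3.71% in thin 1 to 5. All 5 thin libraries lay within the range of the normal ones, and the highest shares were those of normal 4 and normal 5. The difference, thin minus normal, was -0.153 percentage points, smaller than the SD of either group. It was 0.435 without normal 4 and normal 5 and 0.339 without the 3 deepest libraries, and 0.0551 and 0.0796 without normal 4 or normal 5 alone, so its sign rested on these libraries. As a share of the total without the 10 most abundant entries outside the family, the 5p arms took 8.34 ± 1.78% and 7.56 ± 0.971%, a difference of -0.785 points. The 3p arms together made up 0.141 ± 0.0213% and 0.150 ± 0.0419%.

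**Figure D1:**
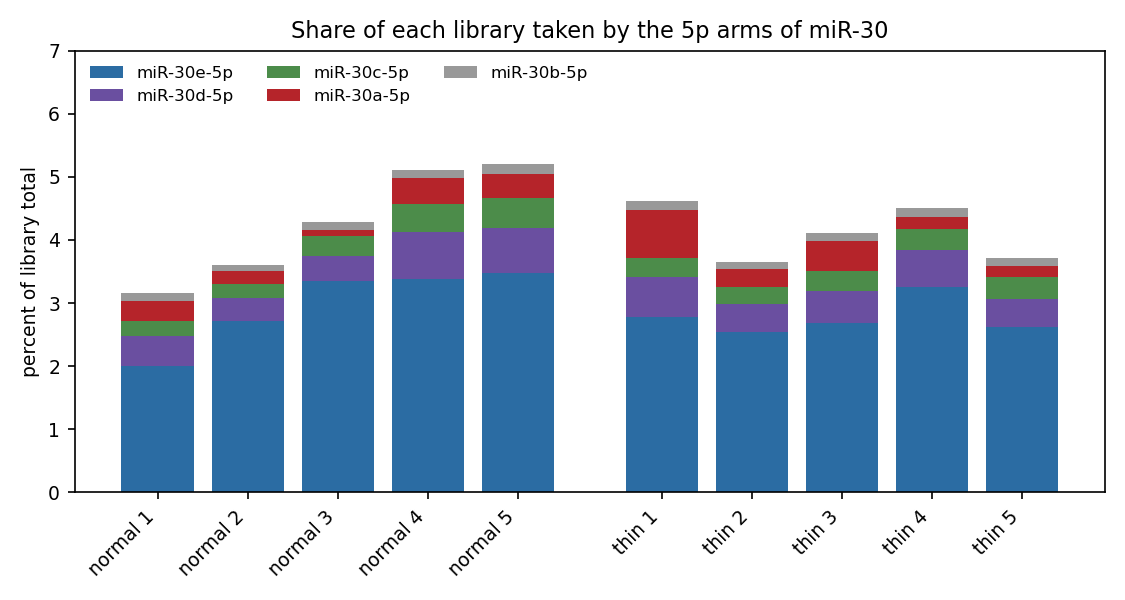
Share of each library's total normalized counts, in percent, taken by the 5p arms of the 5 miR-30 miRNAs, stacked, for the 5 normal and 5 thin libraries. Every bar lies between 3.16% and 5.20%, and miR-30e-5p is the largest block in each.

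The family was dominated by 1 strand of 1 member. The mean level of miR-30e-5p was 21351 ± 5425 normalized counts for the normal group and 17457 ± 3255 for the thin group, and it held rank 9 among all mature names. It made up 60.3% to 78.1% of the 5p sum in each library. Next came miR-30d-5p, with 3877 ± 1367 and 3287 ± 822, a 5.42-fold lower mean over all libraries, and lower than miR-30e-5p in 10 of 10 libraries. MiR-30c-5p followed with 2422 ± 897 and 1997 ± 350, below miR-30d-5p in 10 of 10 libraries. MiR-30c-5p and miR-30a-5p were not ordered, since miR-30c-5p was the higher of them in 6 libraries and miR-30a-5p in 4. MiR-30b-5p, with 886 ± 188 and 821 ± 180, was below miR-30a-5p in 9 of 10 libraries, the exception being normal 3. MiR-30b-5p and miR-30e-3p were not ordered either, with miR-30b-5p higher in 6 libraries of 10. Levels of different miRNAs also depend on how well each sequence is captured by the library kit, which was not measured here.

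**Figure D2:**
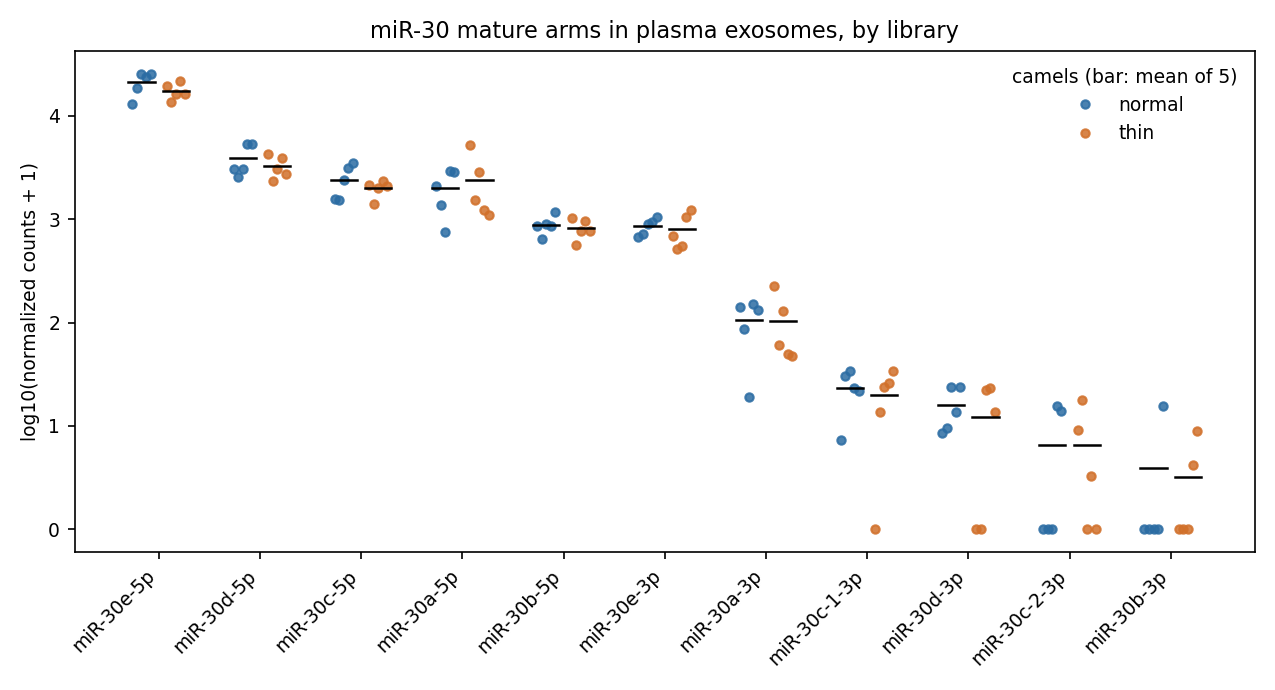
Level of each of the 11 mature arms, as log10(normalized counts + 1), with 1 point per library, normal camels in blue and thin camels in orange, and a bar at the mean count of 5. The groups overlap for every arm, and the levels fall from miR-30e-5p, at a mean of 19404 normalized counts, to miR-30b-3p, listed at 0 in 7 libraries.

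The comparison between groups asked whether miR-30 levels in plasma exosomes differed with body condition. None of the tested miR-30 members was called higher or lower in thin camels. Of the 11 mature arms, 9 passed the filter of 10 or more normalized counts in at least 5 libraries, namely all 5 of the 5p arms and 4 of 6 3p arms. With limma on log2(value + 1), 0 of these 9 had an adjusted p under 0.05, where 1.64% of all 428 tested mature arms and predicted small RNAs did (0.935% higher and 0.701% lower in thin camels). At an unadjusted p under 0.05 there were again 0 of 9, against 12.1% of all tested, and 0 of 9 had groups that did not overlap, against 3.97% of all tested. With entries tested one by one, 0 of 9 tested miR-30 entries were called, against 1.92% of 468 (1.28% higher and 0.641% lower). Most of the tested arms consist of a single entry, so for the family this largely repeats the test of arms. Of these 9 entries, 0 had an unadjusted p under 0.05, against 11.8%, and 0 had groups without overlap, against 3.63%. Any 9 small RNAs would hold few calls at these shares, so the counts of 0 alone say little about the family. No other tool was run. The bounds below say how large a change these libraries leave possible.

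MiR-30e-5p was at 13172, 18451, 25334, 24060 and 25737 normalized counts in normal 1 to 5, and at 19284, 13572, 16249, 22019 and 16162 in thin 1 to 5. Normal 1 was the lowest of all 10 libraries and normal 3, 4 and 5 the highest, so the normal range enclosed the thin one. Its log2 fold change, thin over normal, was -0.27 ± 0.23 (SE; limma adjusted p = 0.690). The 95% interval of that change ran from 0.592-fold to 1.17-fold. The log2 fold change shrank to -0.09 without normal 4 and normal 5 (limma adjusted p = 0.949). Without the 3 deepest libraries it was -0.18 (limma adjusted p = 0.917). With all 10 libraries scaled to equal totals it was -0.08 (limma adjusted p = 0.893), so its size also depended on the scaling.

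MiR-30d-5p was at 3070, 2542, 3060, 5348 and 5363 in normal 1 to 5 and at 4306, 2340, 3069, 3955 and 2766 in thin 1 to 5. Normal 4 and normal 5 were its highest libraries and thin 2 the lowest. The log2 fold change was -0.20 ± 0.27 (limma adjusted p = 0.818), with an interval from 0.579-fold to 1.30-fold. MiR-30c-5p, which differed from miR-30d-5p by 6 of 22 bases, was at 1556, 1524, 2392, 3153 and 3485 in normal 1 to 5, and again normal 4 and normal 5 were highest. In thin 1 to 5 it was at 2150, 1411, 1985, 2333 and 2104, within the normal range but for thin 2. Its log2 fold change was -0.22 ± 0.27 (limma adjusted p = 0.811), with an interval from 0.570-fold to 1.30-fold. Without normal 4 and normal 5 the log2 fold changes of miR-30d-5p and miR-30c-5p turned to 0.15 and 0.14 (limma adjusted p = 0.902 and 0.916). With all libraries scaled to equal totals they were -0.02 and -0.03 (limma adjusted p = 0.977 and 0.967).

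MiR-30b-5p had the smallest SD within groups of the tested miR-30 arms. It was at 859, 638, 909, 859 and 1166 in normal 1 to 5 and at 1018, 565, 777, 970 and 776 in thin 1 to 5. Normal 5 was the highest library and thin 2, the shallowest of the 10, the lowest. The log2 fold change was -0.11 ± 0.24 (limma adjusted p = 0.879), with an interval from 0.641-fold to 1.33-fold. That SD, of log2 values, was 0.323, against a median of 0.991 over all tested mature arms and predicted small RNAs. For miR-30e-5p, miR-30d-5p and miR-30c-5p it was 0.348, 0.438 and 0.441, at percentiles 9.11, 16.4 and 17.1 of those tested. Abundant small RNAs have less counting noise than rare ones, and the spread was not set against small RNAs of like level.

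**Figure D3:**
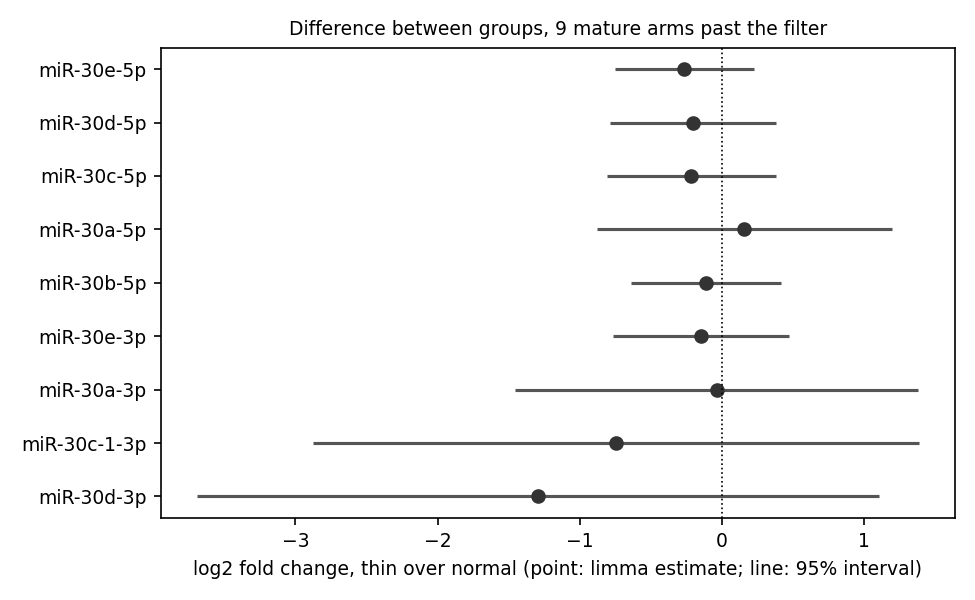
Log2 fold change, thin over normal, of the 9 tested mature arms, with points for the limma estimate and lines for its 95% interval, ordered by level. Every interval includes 0. The intervals of the abundant 5p arms other than miR-30a are narrow, and that of miR-30d-3p is widest, from -3.69 to 1.10.

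MiR-30a varied more between camels than the other 5p arms of the family did, though not more than small RNAs in general: its SD within groups was 0.890, at percentile 46.7 of those tested. The low 3p arms miR-30c-1-3p and miR-30d-3p varied more, with SDs of 1.60 and 1.74. Its 5p arm was at 2086, 1367, 750, 2928 and 2859 normalized counts in normal 1 to 5 and at 5240, 1546, 2865, 1217 and 1093 in thin 1 to 5. Thin 1 was the highest and normal 3 the lowest, a 6.99-fold range, while the range was 1.95-fold for miR-30e-5p, 2.06-fold for miR-30b-5p, 2.29-fold for miR-30d-5p and 2.47-fold for miR-30c-5p. Both extremes came from different groups, and the groups overlapped. The log2 fold change was 0.16 ± 0.48 (limma adjusted p = 0.926), with an interval from 0.543-fold to 2.29-fold. It was -0.19 without thin 1. It was 0.62 without normal 4 and normal 5 (limma adjusted p = 0.690) and 0.80 without the 3 deepest libraries (limma adjusted p = 0.738), and was called in neither. Its share of the 5p sum ran from 2.31% in normal 3 to 16.4% in thin 1.

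The 3p arm of miR-30a, its usual passenger strand, followed the same libraries. Summed over its 3 entries it was at 142, 86.5, 18.0, 149 and 132 in normal 1 to 5 and at 225, 60.1, 128, 48.4 and 46.0 in thin 1 to 5. Thin 1 was again highest and normal 3 lowest. The log2 fold change was -0.04 ± 0.65 (limma adjusted p = 0.983). After each arm was centred on its own mean over the 10 libraries, the root mean square difference between miR-30a-3p and miR-30a-5p was 0.377 on the log2 scale. Between miR-30a-5p and the other 5p arms it was 0.659 for miR-30d-5p, 0.752 for miR-30b-5p, 0.807 for miR-30c-5p and 0.874 for miR-30e-5p. MiR-30b-5p to miR-30e-5p were within 0.201 to 0.294 of each other. These distances are a description over 10 libraries and were not tested. They set miR-30a apart from miR-30d and miR-30e, the members closest to it in sequence. Even so, all its distances to the other 5p arms were under 1.23, its median distance to all tested outside the family.

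**Figure D4:**
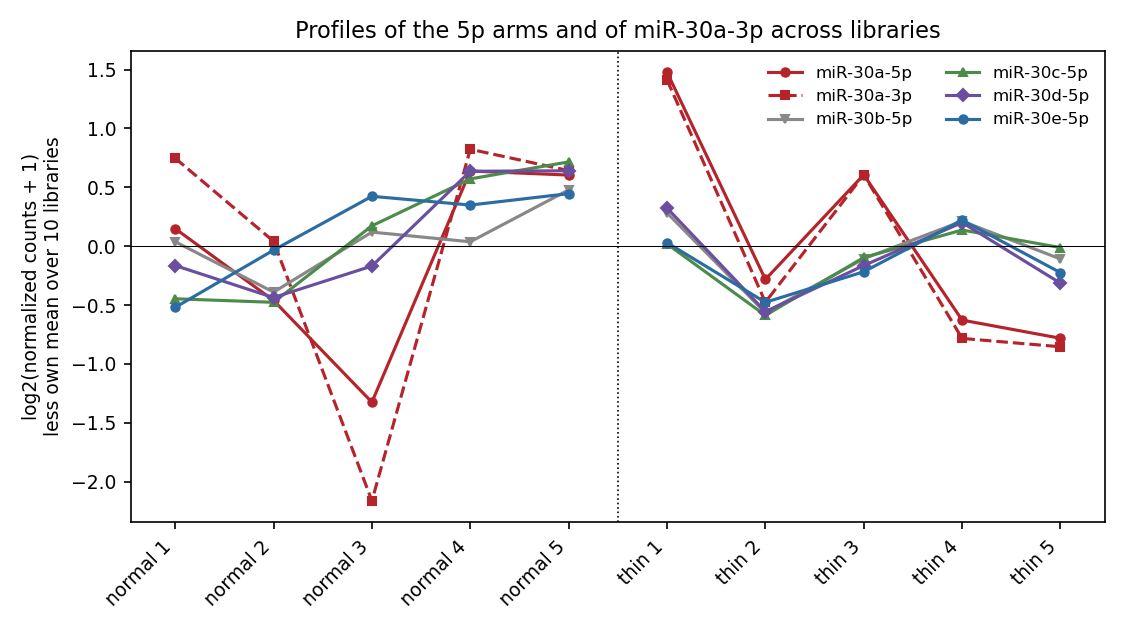
Log2(normalized counts + 1) of the 5p arms and of miR-30a-3p in each library, less the arm's own mean over the 10 libraries. The solid and dashed red lines of miR-30a-5p and miR-30a-3p rise in thin 1 and drop in normal 3 together, while the other 4 lines stay close to each other.

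Marker lists were set beside the levels of miR-30a. Epithelial miRNAs made up 1.38% of thin 1 and between 0.0276% and 0.321% of the other 9 libraries, with the lowest value in normal 3, the library with the lowest miR-30a. The match did not extend to all libraries: normal 2 was second highest for the list, at 0.321%, with low miR-30a, and normal 4 and normal 5 were at 0.0835% and 0.0889% with high miR-30a. Of that list 8 of 8 members were in the table, and the 2 most abundant were miR-200b-3p and miR-200a-3p. Liver miRNAs made up 13.3%, 4.02%, 3.14%, 7.51% and 3.99% of normal 1 to 5 and 6.04%, 4.11%, 9.78%, 1.36% and 1.92% of thin 1 to 5. Their lowest libraries were thin 4, thin 5 and normal 3, which were also the lowest for miR-30a-5p, though in another order. Thin 3 and normal 4 were high for both. The highest for the list was normal 1, not thin 1, and normal 5 was at 3.99% with high miR-30a. Of the liver list 3 of 4 members were in the table, with miR-122-5p at a mean of 29286 normalized counts. The part of either cell type in the miR-30a levels was not tested. In exosomes, more vesicles from a cell type and more of a miRNA per vesicle cannot be told apart.

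The table also held a predicted small RNA that the choice of members by name leaves out. PC-5p-38191_158 begins with the whole of the main miR-30a-5p entry and has 1 further base at its 3′ end.
PC-5p-38191_158: tGTAAACAtcctcgactggaagta
It was at 12.7, 15.6, 8.52, 41.6 and 32.5 normalized counts in normal 1 to 5 and at 117, 54.9, 38.8, 2.30 and 0 in thin 1 to 5. Thin 1 was the highest library, as for miR-30a-5p, but normal 3 was not the lowest. It amounted to between 0% and 3.55% of miR-30a-5p, so adding it would change that level little. No other entry outside the family carried the 5p seed at bases 2 to 8, and none carried the 3p seed of miR-30a, miR-30d and miR-30e there.

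MiR-30e-3p, the main 3p strand of the family with 74.6% to 92.4% of the 3p sum, was at 666, 721, 897, 944 and 1047 in normal 1 to 5 and at 688, 515, 556, 1051 and 1222 in thin 1 to 5. Thin 2 and thin 3 were its lowest libraries and thin 4 and thin 5 its highest, so the thin range enclosed the normal one. The log2 fold change was -0.15 ± 0.29 (limma adjusted p = 0.879), with an interval from 0.587-fold to 1.38-fold. MiR-30c-1-3p was at 6.33, 29.4, 33.1, 22.5 and 20.6 in normal 1 to 5 and at 0, 12.7, 22.7, 24.9 and 33.3 in thin 1 to 5. MiR-30d-3p was at 7.59, 8.65, 22.7, 12.5 and 22.6 in normal 1 to 5 and at 0, 0, 21.4, 22.1 and 12.7 in thin 1 to 5. The zeros fell in thin 1 and thin 2, where values under 4.11 and 5.27 normalized counts were in general not listed. Neither of these arms was listed below 10 steps in any library, so the zeros may hide higher values than these. The log2 fold changes were -0.75 ± 0.98 for miR-30c-1-3p (limma adjusted p = 0.818) and -1.29 ± 1.10 for miR-30d-3p (limma adjusted p = 0.690). That of miR-30c-1-3p turned to 0.16 without thin 1, and that of miR-30d-3p was -0.65 without either thin 1 or thin 2. Both sizes depended on the pseudocount: with 5 in place of 1 they were -0.38 and -0.57, and with 0.5 they were -0.93 and -1.66. Their intervals reached down to 0.136-fold and 0.0775-fold, so these low arms were measured loosely. MiR-30c-2-3p was listed in 5 libraries at up to 16.9, and miR-30b-3p in normal 5, thin 4 and thin 5 at up to 14.6, and neither was tested.

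The choice of strand was compared as the log2 ratio of the summed 5p to the summed 3p arm. Every miR-30 hairpin favoured the 5p arm in every library where both arms were listed, while 54 of 87 hairpins in the table had a mean ratio above 0. The ratio of miR-30e was 4.62 ± 0.190 in normal and 4.501 ± 0.472 in thin camels, and its lowest value, 3.72, was that of thin 5. The ratio of miR-30a was 4.37 ± 0.570 and 4.57 ± 0.0769. In the thin libraries the ratio of miR-30a ran from 4.47 to 4.66 although the level of its 5p arm ran from 1093 to 5240 normalized counts. In normal camels normal 3 was highest, at 5.31, from 38 steps of the main 3p entry. The ratios of miR-30c were 6.51 ± 0.778 and 6.42 ± 0.882, and those of miR-30d 7.998 ± 0.638 and 9.09 ± 2.35, the latter raised by the listed zeros of thin 1 and thin 2. By a two-sided exact permutation test 0 of 4 tested miR-30 hairpins differed between groups (unadjusted p = 0.714 for miR-30e, 0.476 for miR-30a, 0.849 for miR-30c and 0.405 for miR-30d). Adjusted p over 87 hairpins was between 0.816 and 0.988 for them. None of all 87 passed after adjustment, or 0.0%, and 10 had an unadjusted p under 0.05, where the smallest p possible is 0.00794. Many hairpins would have to reach that p at once for any to pass, so the count of 0 says little. MiR-30b had both arms in 3 libraries and was not tested.

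**Figure D5:**
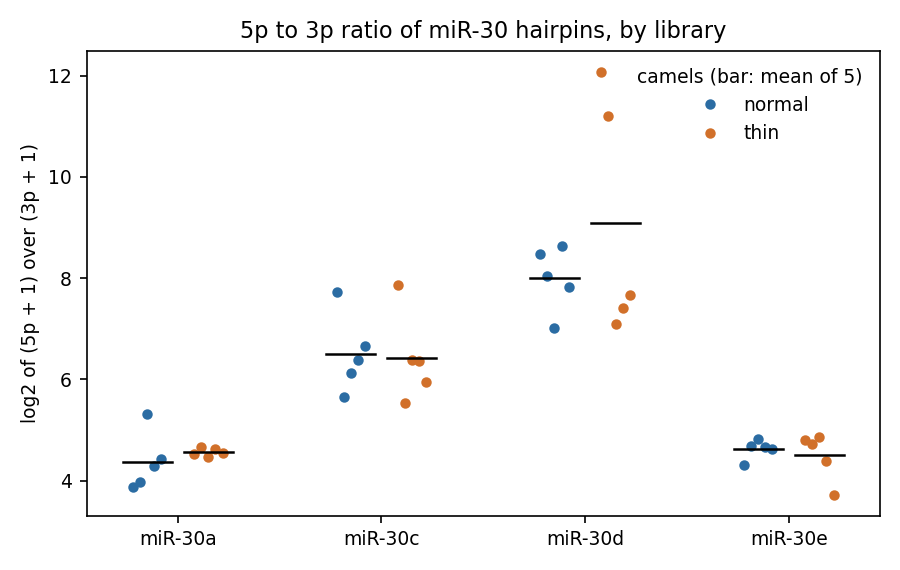
Strand preference as log2 of (5p + 1) over (3p + 1), in normalized counts, of 4 miR-30 hairpins, with 1 point per library and a bar at the mean of 5. The thin points of miR-30a lie between 4.47 and 4.66, and the 2 high thin points of miR-30d, at 11.2 and 12.1, are libraries where its 3p arm was listed at 0.

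The mature arms whose pattern over the 10 libraries was closest to the summed 5p level of the family were miR-484, miR-20a-3p and miR-423-3p, at root mean square differences of 0.199, 0.228 and 0.239 on the log2 scale, against a median of 1.03 over all tested outside the family. All 3 had no call between groups, with log2 fold changes of -0.34, -0.06 and -0.44 (limma adjusted p = 0.592, 0.963 and 0.403). As miR-30e-5p makes up most of the sum, the same 3 were closest to miR-30e-5p. For miR-30a-5p, looked at after its values were seen, the closest was miR-139-5p, at 0.313, followed at 0.314 by miR-100-5p and miR-99a-5p, which the table lists with identical values and which cannot be told apart here.

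Other miRNAs known for the same processes were looked at beside the family, where 1.64% of all tested were called. Of 17 miRNAs of fat cells besides miR-30, 13 were tested, 0 rose and 0 fell, 7 had a higher mean in thin camels, and their median log2 fold change was 0.08, beside -0.02 over all 428 tested. The most abundant were miR-26a-5p (log2 fold change -0.12, limma adjusted p = 0.879) and miR-26b-5p (0.08, 0.960). Of 9 miRNAs that restrain the epithelial to mesenchymal transition besides miR-30, 8 were tested, 0 rose and 0 fell, 7 had a higher mean in thin camels, and the median was 0.55. Lists this short would hold few calls at that share. The epithelial list also holds 7 of these 9. The most abundant of them was miR-101-3p (0.34, 0.660), followed by miR-200b-3p (1.67, 0.584). The median over the 9 tested miR-30 arms was -0.20. In 8 of 9 the thin group had the lower mean on the log2 scale, against 50.9% of all tested. With equal library totals 5 of 9 were lower, with a median of -0.02 where that of all tested was 0.16, and without normal 4 and normal 5 there were 2 of 8. With sample quality weights 9 of 9 were lower, with a median of -0.43 where that of all tested was -0.09, and without normal 3 there were also 9 of 9.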

How the data were processed

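Small RNA of plasma exosomes from 5 thin and 5 normal camels was sequenced, 1 library per camel. Per the labels' protocols, ultracentrifugation gave the exosomes, the TruSeq small RNA kit the libraries, and the program ACGT101-miR removed adapter dimers, junk, common RNA families and repeats. The deposited values are a signal that the authors' column headers call normalized counts. The scaling factor, mapping reference and genome build are not given in the sources used here, and 2 empty lines were not used. A mature name was made by dropping the species prefix and the notes on end changes and substitutions. Its entries were summed, and no sequence of a member was listed under a second name. Log2(value + 1) of those at 10 or more in at least 5 libraries was fitted with limma 3.58.1 (R 4.3.3, mean trend, group as the only term), with Benjamini-Hochberg adjustment over the whole table at 0.05. The fit was tested on simulated data. Fold changes are on the log2(value + 1) scale. It understates changes of small RNAs that are low but listed, and can enlarge those where some libraries are listed at 0. Arm ratios were compared by exact permutation over 252 splits in Python 3.11.15. All members were named. Outside the family the names were those closest in pattern to the 5p sum by a stated distance and the most abundant of each list. The members and lists were chosen with earlier results of these data known. Whole reads were not recovered for the table, so no count test was run and depth is given in steps (tolerance 0.02 of a step). A design that assumed either unit was written, and the test for normalized values was used.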

Additional observations from a re-analysis of the deposited data

Results flagged for a closer look

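In 72 sets of 5 values examined, 2 had a library far from the other 4, and chance flags about 1 in 20. Both concern miR-30b-3p in normal 5, which was at 14.6 normalized counts, or 1.17% of the 3p sum, while the other 4 normal libraries were listed at 0. They are the same value, as a count and as a share. With the other 4 at 0 any listed value is flagged, so the rate of 1 in 20 does not apply to it. The sets also overlap, since the same arms enter as counts and as shares. Normal 5 was the deepest library. Thin 4 and thin 5 also listed this arm, at 3.23 and 7.93 normalized counts.

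The predicted small RNA PC-5p-38191_158 lies outside the members. It was at 10 or more normalized counts in 7 libraries, so it is among all those tested, and its own test result is not given here. It reached 117 normalized counts in thin 1 and 54.9 in thin 2, above the highest normal library at 41.6, while thin 4 and thin 5 were below the lowest normal library at 8.52. It contains the whole of the main miR-30a-5p entry.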

How the results depend on the processing

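The counts of called miR-30 entries and mature arms were 0 in every alternative run and with each library left out. So was that of hairpins, where the exact test could hardly give a call and 0 says nothing of stability. Of 468 values of single members and hairpins under an alternative, 46 changed sign and 0 passed the threshold. Most arms consist of a single entry and are counted both as entry and as arm, so these values are not separate results. With equal library totals the log2 fold change was 0.073 for miR-30b-5p, 0.036 for miR-30e-3p and 0.15 for miR-30a-3p. Without normal 4 and normal 5 it was 0.021 for miR-30b-5p, 0.14 for miR-30c-5p, 0.15 for miR-30d-5p, 0.0084 for miR-30e-3p and 0.44 for miR-30a-3p. Without the 3 deepest libraries it was 0.081 for miR-30c-5p, 0.079 for miR-30d-5p and 0.63 for miR-30a-3p. Sample quality weights gave -0.24 for miR-30a-5p, -0.18 for its main entry and -0.29 for the main entry of miR-30a-3p. They also gave the lowest adjusted p of limma for miR-30d-5p (-0.53, 0.182), miR-30e-5p (-0.43, 0.186) and miR-30c-5p (-0.50, 0.218). The main entry of miR-30a-3p, at 0.0013 with all libraries, was at -0.013 with a pseudocount of 5 and -0.027 after upper quartile scaling. The cause was not tested. These alternatives without several libraries, and one with a common floor of 5 steps of the shallowest library, were chosen after seeing the data.

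With each library left out in turn, log2 fold changes of mature arms ran from -0.43 to -0.18 for miR-30e-5p, -0.34 to -0.07 for miR-30d-5p, -0.36 to -0.06 for miR-30c-5p, -0.23 to 0.013 for miR-30b-5p, -0.19 to 0.37 for miR-30a-5p, -0.58 to 0.17 for miR-30a-3p, -0.32 to -0.0098 for miR-30e-3p, -1.12 to 0.16 for miR-30c-1-3p and -1.79 to -0.65 for miR-30d-3p, and from -0.51 to 0.19 for the main entry of miR-30a-3p. The difference in arm ratio ran from 0.07 to 0.43 for miR-30a, -0.45 to 0.22 for miR-30c, 0.34 to 1.59 for miR-30d and -0.21 to 0.077 for miR-30e, and the difference in 5p share from -0.430 to 0.0796 percentage points.

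Correlations of same-numbered libraries were 0.182, 0.253, 0.0272, 0.518 and -0.199. Normal 2 and normal 4 were closest to the thin library of their own number, and normal 1, normal 3 and normal 5 were not. The labels name no pairing, and so few correlations cannot exclude one. With the replicate number as a block, 0 miR-30 arms and 0 entries were called, and calls over all tested mature arms went from 7 to 5. Calls over all tested mature arms were 18 with sample quality weights, 12 with no filter, 11 with 10 or more in all libraries, 2 without trend, 4 without normal 3, normal 5, thin 2 or thin 4, 1 without normal 4 and normal 5, and 3 without the 3 deepest libraries, against 7. Calls over all tested entries were 15 with no filter, 14 with sample quality weights or without thin 1, 4 without trend, 3 without normal 4 and normal 5 and 5 without the 3 deepest libraries, against 9. The low tested 3p arms rest on as few as 10 steps in a library where they are listed, and their intervals are the widest of the 9 arms.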
